A study of Mus musculus with 12 samples.

Results

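Conventional dendritic cells are antigen-presenting cells of 2 main types, type 1 (cDC1) and type 2 (cDC2). The comparison described here sets the 3 RNA sequencing libraries of splenic cDC1 from wild-type (WT) mice against the 3 libraries of splenic cDC2 from the same mice. The members were chosen by the sample titles alone, and they are 6 of the 12 libraries of the series. All mice were female C57/BL6, and the WT mice carry the genotype label zfp366+/+. The other 6 libraries are cDC1 and cDC2, 3 of each, from zfp366-/- mice (KO), which lack a working copy of Zfp366, whose protein DC-SCRIPT is a zinc finger factor, according to the label. Dendritic cells were isolated directly from spleens digested with collagenase and DNAse, with no culture and no stimulus named in the labels. Each library came from a pool of mice, so single animals cannot be told apart. Pools 4, 5 and 6 gave 1 WT cDC1 and 1 WT cDC2 library each, and pools 1, 2 and 3 the KO libraries. The labels give neither the ages of the mice nor the number in a pool.

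In the spleen, cDC1 are known for taking up dying cells and for presenting the antigen they carry on MHC class I to CD8 T cells, a process called cross-presentation. Splenic cDC2 are known for presenting antigen on MHC class II to CD4 T cells. The transcription factor IRF8 is needed for cDC1, and IRF4 and Notch signals act in cDC2.

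The labels were checked on 3 defining genes of each subset. Xcr1, the chemokine receptor of cDC1, had 871, 1068 and 1058 CPM in WT cDC1 and 4.28, 1.63 and 0.0911 CPM in WT cDC2. Clec9a, a lectin that binds actin exposed by dead cells, had 458, 542 and 578 CPM in WT cDC1 and 27.9, 3.44 and 1.09 CPM in WT cDC2, and Irf8 had 1942, 2276 and 2185 CPM in WT cDC1 and 91.4, 28.2 and 18.4 CPM in WT cDC2. All 3 genes were lower in every WT cDC2 library than in any WT cDC1 library, and highest among the former in replicate 1. Xcr1 stood at a log2 fold change of 9.99, Clec9a at 7.79 and Irf8 at 6.51 without cDC2 WT replicate 1. Sirpa, an inhibitory receptor that binds CD47, had 30.3, 22.4 and 21.5 CPM in WT cDC1 and 499, 785 and 706 CPM in WT cDC2. Irf4 had 18.5, 12.7 and 10.1 CPM in WT cDC1 and 322, 249 and 268 CPM in WT cDC2, and Clec4a4, the lectin DCIR2, had 3.35, 6.58 and 6.30 CPM in WT cDC1 and 528, 349.8 and 373 CPM in WT cDC2. No library went against its label in any of the 6 genes. These values are CPM, read counts scaled to the size of the library, listed here and below in the order of replicates 1, 2 and 3.

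The 6 WT libraries held 11330503 (cDC2 WT replicate 3) to 28470063 (cDC2 WT replicate 1) counts. cDC1 WT replicate 1 correlated with replicates 2 and 3 at 0.949 and 0.933 over log2 CPM, whereas replicates 2 and 3 correlated at 0.989. In cDC2 the 3 correlations were 0.943, 0.887 and 0.938. The rank correlation of gene length with the deviation of log2 CPM from the mean of all libraries also differed. It was 0.45, -0.24 and -0.34 in WT cDC1 and -0.33, -0.09 and -0.1 in WT cDC2. The heat shock gene Hspa1a had 15.7, 2340.0 and 1769 CPM in WT cDC1 and 91.8, 3636 and 3131 CPM in WT cDC2, so both libraries of mouse pool 4 were low. Transcripts of the other subset were also read at the highest share in that pool. Of 22 tested genes of a list of known cDC1 markers, the 21 called higher in cDC1 stood at a median of 3.45%, 1.58% and 0.862% of their cDC1 level in cDC2 WT replicates 1, 2 and 3. Of 23 tested genes of a list of known cDC2 markers, the 20 called higher in cDC2 stood at 4.90%, 3.63% and 3.43% of their cDC2 level in the cDC1 libraries. Another member of that list, Clec12a, went against it and was called higher in cDC1 (log2 fold change 2.21). Genes kept by such calls have low shares by choice, so only the order of the replicates is read here. Some counts of calls are therefore also given from replicates 2 and 3 alone. That fit leaves out replicate 1 of every group, KO included. Its spread is estimated from replicates 2 and 3 of the WT and KO groups together.

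Genes that mark other cell types were read in both subsets. The summed level of 18 plasmacytoid dendritic cell markers was 255.2 to 274.6 CPM in WT cDC1 and 536.8 to 620.1 CPM in WT cDC2. The defining marker Siglech had 0.495, 2.40 and 1.503 CPM in the first and 1.44, 3.86 and 2.28 CPM in the second. The sum over 19 markers of red pulp macrophages was 192.6 to 398.8 CPM in cDC1 and 472.4 to 957.3 CPM in cDC2, and that over 14 monocyte markers was 2672 to 3200.0 CPM and 4307 to 5863 CPM. The 12 B cell markers summed to 94.7 to 118 CPM and 97.4 to 218 CPM, the 10 T cell markers to 12.4 to 18.3 CPM and 60.1 to 75.3 CPM, and the 10 neutrophil markers to 2.25 to 24.7 CPM and 13.3 to 113 CPM. The 8 mast cell, basophil and eosinophil markers, 4 of them without a read, summed to 0.867 to 1.60 CPM and 3.07 to 42.4 CPM. The sums were higher in WT cDC2 for plasmacytoid cells, macrophages, monocytes, T cells and this last list, with no overlap between the groups, and their part in the results below was not tested. In bulk samples, fewer cells of a type and less RNA per cell cannot be told apart.

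Of 13415 genes tested, 2846 differed at an adjusted p below 0.05 in edgeR's quasi-likelihood test, which is 21.2%. The count was 782 when the 6 WT libraries were fitted alone with the mouse pool as a block, 1537 when they were fitted alone without it, and 6391 within replicates 2 and 3. The direction was balanced, with 1389 genes higher in cDC1 (10.4% of all tested) and 1457 higher in cDC2 (10.9%). All log2 fold changes below are WT cDC1 minus WT cDC2, so a positive value is higher in cDC1. A test against a 2-fold difference called 1142 genes (8.51%), 469 higher in cDC1 (3.5%) and 673 higher in cDC2 (5.02%). The median fitted fold was 2.76 among genes called higher in cDC1 and 4.40 among those called higher in cDC2. The 3 libraries of 1 subset lay above the 3 of the other, with no overlap, for 4384 genes (32.7%). No read was found in any WT cDC2 library for 38 of the genes higher in cDC1, nor in any WT cDC1 library for 28 of those higher in cDC2. The 1389 genes took 21.3%, 23.2% and 22.6% of the reads in cDC1 and 7.48%, 7.35% and 6.64% in cDC2. The 1457 genes took 4.41%, 4.32% and 4.27% of the reads in cDC1 and 14.2%, 13.1% and 13.2% in cDC2. The read share of the genes higher in cDC1 was thus larger in their own subset, in every library, than that of the genes higher in cDC2 in theirs.

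**Figure D1:**
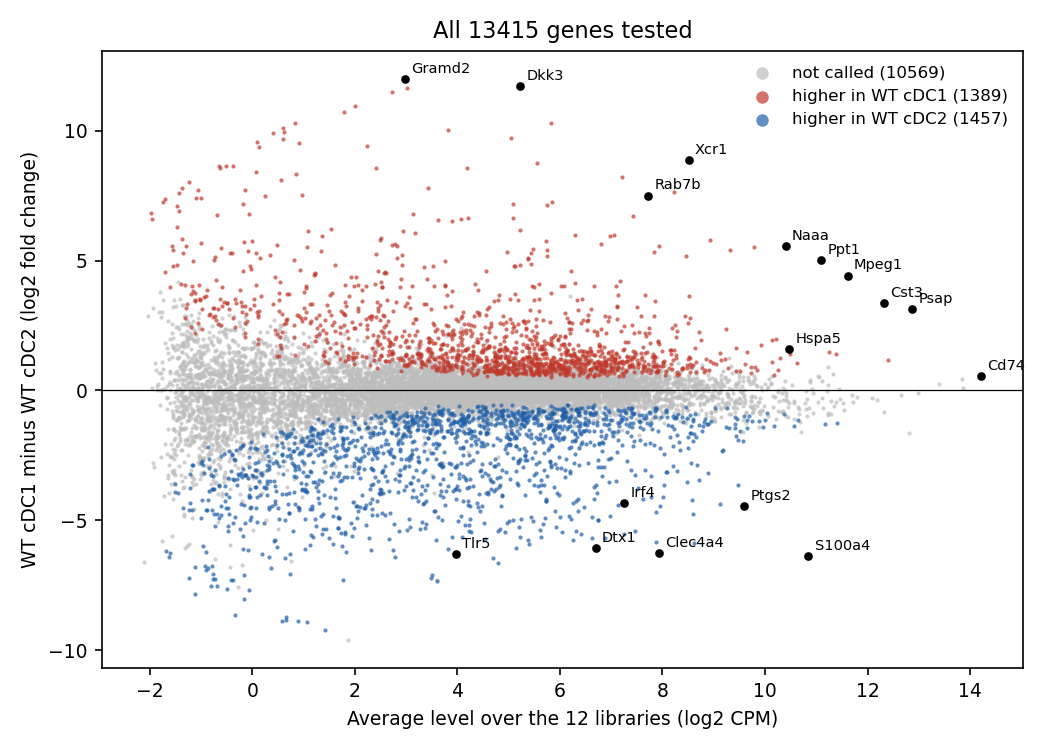
Log2 fold change of WT cDC1 over WT cDC2 (vertical axis) against the average level over the 12 libraries in log2 CPM (horizontal axis), 1 point per gene tested. Red points are the 1389 genes called higher in WT cDC1, blue points the 1457 called higher in WT cDC2, grey points the rest, and black points carry gene names; genes with no read in 1 subset form the sloping edges, the abundant genes Psap, Cst3, Mpeg1 and Ppt1 stand at the upper right, and S100a4 stands at the lower right.

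Outside the 2 lists of known subset markers and at a mean of at least 20 CPM, the 12 genes with the largest folds in cDC1 were low or without reads in cDC2. Gramd2 had 18.2, 24.8 and 21.2 CPM in cDC1 and no read in cDC2, where 3 reads over the group would make it at least 437-fold higher. Dkk3, of the secreted Dickkopf proteins, had 59.4, 82.2 and 78.5 CPM in WT cDC1 and 0, 0 and 0.0911 CPM in WT cDC2, the last value being a single read, which gives a ratio of 4486 (95% counting interval 805 to 177200.0). P3h2, a prolyl hydroxylase that modifies collagen, had 120.5, 83.6 and 67.7 CPM in WT cDC1 and 0, 0.140 and 0.0911 CPM in WT cDC2, without overlap (log2 fold change 10.29, SE 0.52, adjusted p = 1.15e-07). Fzd1, a receptor of WNT ligands, had 72.0, 130.3 and 122 CPM in WT cDC1 and 1.68, 0.0465 and 0.0911 CPM in WT cDC2 (log2 fold change 7.24, SE 0.77, adjusted p = 2.64e-05). Ctla4, known as an inhibitory receptor of T cells, had 19.0, 38.1 and 34.8 CPM in WT cDC1 and 0.491, 0.186 and 0 CPM in WT cDC2 (log2 fold change 6.79, SE 0.73, adjusted p = 2.77e-05), and its transcript was read in all 3 cDC1 libraries. Plpp1, a lipid phosphatase of the cell surface, had 77.6, 124 and 135 CPM in WT cDC1 and 1.37, 1.02 and 0.911 CPM in WT cDC2 (log2 fold change 6.63, SE 0.43, adjusted p = 5.94e-07). The others of the 12 were Mab21l3 (8.57, SE 0.80), Gpr141b (7.63, SE 0.99), Serpinb8 (7.20, SE 0.56), Ttc39a (7.13, SE 0.70), Fgd6 (6.64, SE 0.56) and Clec4b2 (6.58, SE 0.72). Fzd1 stood at a log2 fold change of 10.65, P3h2 at 9.47, Ctla4 at 7.95, Mab21l3 at 9.20, Gpr141b at 9.57, Serpinb8 at 8.13, Ttc39a at 8.56, Fgd6 at 7.83 and Clec4b2 at 9.20 without cDC2 WT replicate 1. P3h2 stood at a log2 fold change of 11.48, Gpr141b at 7.03 and Clec4b2 at 5.98 without cDC2 WT replicate 2.

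Among the 12 largest folds in the other direction, again outside the known subset markers, several encode surface proteins. Cdhr3, a cadherin, had 0.165, 0.204 and 0 CPM in WT cDC1 and 23.8, 14.9 and 25.9 CPM in WT cDC2 (log2 fold change -7.35, SE 0.75, adjusted p = 1.94e-05). Sucnr1, the receptor of succinate, had 0.220, 0.561 and 0.925 CPM in WT cDC1 and 56.6, 45.7 and 48.2 CPM in WT cDC2 (log2 fold change -6.46, SE 0.73, adjusted p = 4.20e-05), below 1 CPM in every cDC1 library. Bmp2, a bone morphogenetic protein, had 1.43, 0.510 and 0.636 CPM in WT cDC1 and 68.6, 46.8 and 38.8 CPM in WT cDC2 (log2 fold change -5.90, SE 0.74, adjusted p = 1.03e-04). Mmp12, the macrophage elastase, had 4.29, 4.34 and 3.58 CPM in WT cDC1 and 252, 205 and 175 CPM in WT cDC2 (log2 fold change -5.69, SE 0.24, adjusted p = 4.67e-08). Cd7, a surface protein better known on T and NK cells, had 6.65, 12.9 and 13.1 CPM in WT cDC1 and 1066, 425 and 423 CPM in WT cDC2 (log2 fold change -5.87, SE 0.54, adjusted p = 9.10e-06), and replicate 1 was highest in cDC2. The remaining ones were Ryr3 (-6.66, SE 1.03), Tlr5 (-6.32, SE 0.71), Sirpb1a (-5.85, SE 0.30), Sirpb1c (-5.78, SE 0.26), Npl (-5.78, SE 0.56), Ncald (-5.73, SE 0.49) and Ifitm1 (-5.70, SE 0.71). Ryr3 stood at a log2 fold change of -7.65 and Tlr5 at -9.52 without cDC1 WT replicate 1. Tlr5 stood at a log2 fold change of -5.71 without cDC1 WT replicate 2. Cd7 stood at a log2 fold change of -5.28, Npl at -5.17 and Ifitm1 at -4.80 without cDC2 WT replicate 1.

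The abundant end of the transcriptome was led by lysosomal and chaperone genes in cDC1. Psap, the precursor of the saposins that help degrade sphingolipids, had 15620.0, 16710.0 and 13960.0 CPM in WT cDC1 and 1905, 1875 and 1458 CPM in WT cDC2 (log2 fold change 3.14, SE 0.43, adjusted p = 2.19e-04), so it took over 1% of the reads in each cDC1 library. Cst3, the protease inhibitor cystatin C, had 7210.0, 14320.0 and 14740.0 CPM in WT cDC1 and 1500.0, 970.2 and 1030.0 CPM in WT cDC2 (log2 fold change 3.37, SE 0.32, adjusted p = 1.09e-05). Mpeg1, which encodes the pore-forming protein perforin-2, had 6215, 7701 and 7580.0 CPM in WT cDC1 and 638, 200.2 and 163 CPM in WT cDC2 (log2 fold change 4.42, SE 0.48, adjusted p = 2.79e-05). Cystatin C was lowest in replicate 1 among the cDC1 libraries, and still above every cDC2 library. Actb, Plbd1, Pdia3 and Hspa5 were also among the 8 genes with the largest CPM difference, at 1.18 (SE 0.24), 1.42 (SE 0.27), 1.97 (SE 0.23) and 1.58 (SE 0.23). In the cDC2 direction the 8 genes with the largest CPM difference were led by Btg2 and Zfp36, immediate early genes that restrain growth and cytokine mRNA. Ptgs2, the inducible cyclooxygenase, had 119.8, 36.4 and 37.4 CPM in WT cDC1 and 1406, 1542 and 1343 CPM in WT cDC2 (log2 fold change -4.47, SE 0.46, adjusted p = 2.17e-05), and Ccrl2, a chemerin-binding receptor that does not signal, had 114, 117 and 123 CPM in WT cDC1 and 1421, 1561 and 1470.0 CPM in WT cDC2 (log2 fold change -3.65, SE 0.23, adjusted p = 5.40e-07). Mdh2, a mitochondrial enzyme of the citrate cycle, had 273, 319 and 314 CPM in WT cDC1 and 1214, 1205 and 1123 CPM in WT cDC2 (log2 fold change -1.97, SE 0.22, adjusted p = 3.30e-05). The others were Fth1 (-1.14, SE 0.24), S100a6 (-4.38, SE 0.41) and Rps19 (-1.35, SE 0.44). The call of Rps19 ended without any single WT library other than cDC1 WT replicate 3, at adjusted p = 0.0702 to 0.101, and with the mouse pool as a block (adjusted p = 0.0721). Ptgs2 stood at a log2 fold change of -5.28 without cDC1 WT replicate 1. Mpeg1 stood at a log2 fold change of 5.30 without cDC2 WT replicate 1.

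Lists of genes by function show where the difference lay. A share of members near 10.4% or 10.9% is that of all genes tested, and the median log2 fold change over all genes tested was 0.02. The share passed 50% in cDC1 for the unfolded protein response, and in cDC2 for Fc and paired receptors and for C-type lectins. The counts of called members depend on the fit. When the 6 WT libraries were fitted alone with the mouse pool as a block, 2.4% of all genes tested were called higher in cDC1 and 3.82% higher in cDC2, and 62 of the 96 counts by list and direction moved by over 1.5 times. Within replicates 2 and 3, 48 of them did, with 23.2% and 24.3% of all genes called.

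**Figure D2:**
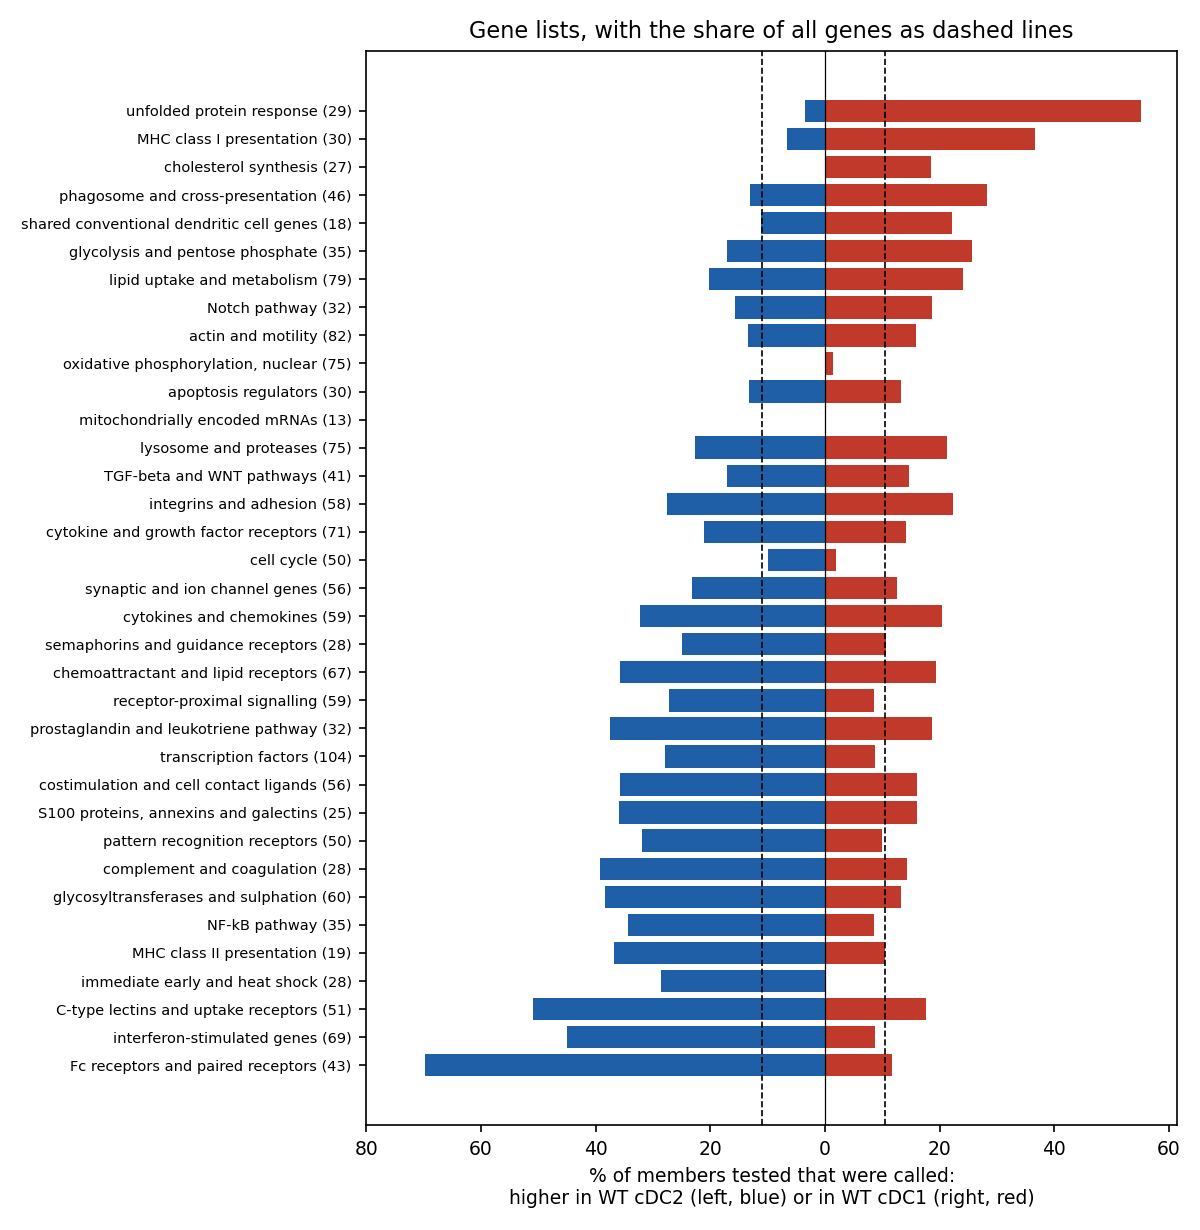
Share of the tested members of each gene list called higher in WT cDC1 (red, right) and in WT cDC2 (blue, left), in percent, with the number tested in brackets and the lists ordered by the difference of the shares. Dashed lines mark the share over all genes, 10.4% and 10.9%; the unfolded protein response stands furthest to the cDC1 side and Fc and paired receptors furthest to the cDC2 side.

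Many chaperones of the endoplasmic reticulum were higher in cDC1. The unfolded protein response is the programme by which a cell raises the folding capacity of the endoplasmic reticulum, through the sensors IRE1 with its target XBP1, ATF6 and PERK. Of the 29 genes tested, 16 were higher in cDC1 and 1 in cDC2, with a median of 1.26, and 7 of the first passed the test against 2-fold. Leaving out 1 library at a time gave 14 to 16 genes higher in cDC1, and replicates 2 and 3 alone gave 18. The 6 WT libraries fitted alone with the mouse pool as a block gave 5. Hspa5, the chaperone BiP, had 2130.0, 2342 and 2262 CPM in WT cDC1 and 626, 914 and 716 CPM in WT cDC2 (log2 fold change 1.58, SE 0.23, adjusted p = 3.42e-04). Hsp90b1, the chaperone GRP94, had 1349, 1225 and 1122 CPM in WT cDC1 and 140.3, 310.3 and 271 CPM in WT cDC2 (log2 fold change 2.36, SE 0.30, adjusted p = 1.18e-04). Pdia4, a disulphide isomerase, had 179.7, 216 and 224 CPM in WT cDC1 and 41.2, 59.0 and 42.4 CPM in WT cDC2 (log2 fold change 2.12, SE 0.23, adjusted p = 2.47e-05), and Creld2 had 112, 131 and 130.3 CPM in WT cDC1 and 37.6, 30.8 and 20.5 CPM in WT cDC2 (log2 fold change 2.07, SE 0.24, adjusted p = 4.84e-05). In each of these genes the lowest cDC1 library was over 2 times the highest cDC2 library. Hyou1, a large chaperone that works with BiP, had 358, 259.9 and 231 CPM in WT cDC1 and 60.9, 92.6 and 77.5 CPM in WT cDC2 (log2 fold change 1.88, SE 0.25, adjusted p = 1.62e-04). The regulator Xbp1 did not pass, with 136, 128 and 128 CPM in WT cDC1 and 182, 101 and 96.5 CPM in WT cDC2 and a log2 fold change of 0.04 with a 95% interval of -0.52 to 0.61. The 1 member higher in cDC2 was Ppp1r15a, the GADD34 subunit that reverses PERK signalling, with 330.2, 176 and 131 CPM in WT cDC1 and 432, 521 and 519 CPM in WT cDC2 (log2 fold change -1.21, SE 0.29, adjusted p = 0.00944), which did not pass once cDC1 WT replicate 2 was left out (adjusted p = 0.0521). Also higher in cDC1 were Rpn1, part of the enzyme that attaches N-glycans, at 1.77 (SE 0.20), and Sec61a1, the channel through which proteins enter the endoplasmic reticulum, at 1.17 (SE 0.24).

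Part of the chaperone genes share a promoter motif named for the same response, so matches in the list were likely from the start. The endoplasmic reticulum stress response element is read by ATF6 together with the factor NF-Y, and the letters searched were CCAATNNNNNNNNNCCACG on both strands, in the 250 bases before the first start listed by RefSeq (GRCm38.p6). Of the genes tested, 10086 have such a promoter, and 18 of them (0.178%) hold the motif. Among genes higher in cDC1 it was in 9 of 1081 (0.833%), and among genes higher in cDC2 in 1 of 1100 (0.0909%). In the unfolded protein response list it was in 9 of the 26 members with a promoter, and in 8 of the 14 that were higher in cDC1. These 8 are among the 9 of all genes higher in cDC1, so the share of 0.833% is not separate from the list. The 9 genes higher in cDC1 are printed below with 5 bases on each side, because they show the shared letters and the spacer that differs from gene to gene; the 19 bases of the motif are in capitals and run in the direction of the motif. They were picked by their motif after their values were seen.
Hspa5: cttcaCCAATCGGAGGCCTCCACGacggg
Hsp90b1: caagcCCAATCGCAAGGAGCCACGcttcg
Calr: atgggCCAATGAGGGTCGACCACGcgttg
Canx: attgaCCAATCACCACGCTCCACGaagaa
Pdia6: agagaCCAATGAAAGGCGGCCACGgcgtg
Creld2: gtggaCCAATTGAGGCTCGCCACGagaag
Dnajc3: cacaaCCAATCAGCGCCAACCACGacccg
Derl3: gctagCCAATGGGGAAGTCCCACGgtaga
Ero1b: ggcggCCAATGAGGCGGGACCACGaggcc

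The sites lie between 65 and 212 bases before the start, and Hsp90b1 holds a second one 107 bases before it. The site of Creld2 lies between it and Alg12, a gene of the opposite strand that did not pass (0.25 with a 95% interval of -0.33 to 0.83). The spans of the sites on GRCm38.p6 include chr2:34772025-34772043 for Hspa5, chr10:86705638-86705656 for Hsp90b1 and chr8:84847075-84847093 for Calr. Calr, the lectin chaperone calreticulin, had 1096, 1531 and 1539 CPM in WT cDC1 and 539.7, 501 and 443 CPM in WT cDC2 (log2 fold change 1.49, SE 0.22, adjusted p = 3.42e-04), and its membrane-bound relative Canx had 601, 494 and 482 CPM in WT cDC1 and 231, 234 and 194 CPM in WT cDC2 (log2 fold change 1.26, SE 0.20, adjusted p = 6.24e-04). Pdia6 stood at 1.65 (SE 0.23), Dnajc3 at 1.46 (SE 0.25) and Derl3, which helps to remove misfolded proteins, at 2.89 (SE 0.61). Derl3 stood at a log2 fold change of 3.66 without cDC2 WT replicate 3. In the fit of the 6 WT libraries alone with the mouse pool as a block, the calls of Calr, Canx, Pdia6, Dnajc3 and Derl3 ended (adjusted p = 0.0551 to 0.0799). Ero1b, the oxidase that recharges disulphide isomerases, is not in the list and was at 1.48 (SE 0.29). The WT cDC1 and cDC2 libraries did not overlap in any of the 9 genes. The motif also stands before Syvn1, which did not pass (log2 fold change 1.06 with a 95% interval of 0.26 to 1.87), before Adcy3, which was higher in cDC2 (-2.10, SE 0.48), and before 7 other tested genes that did not pass, Alg12 among them. A shorter element of the same response, TGACGTGG, was in 0.694% of tested promoters and in none of the 26 members. A match is a description of the letters and was not tested for binding.

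**Figure D3:**
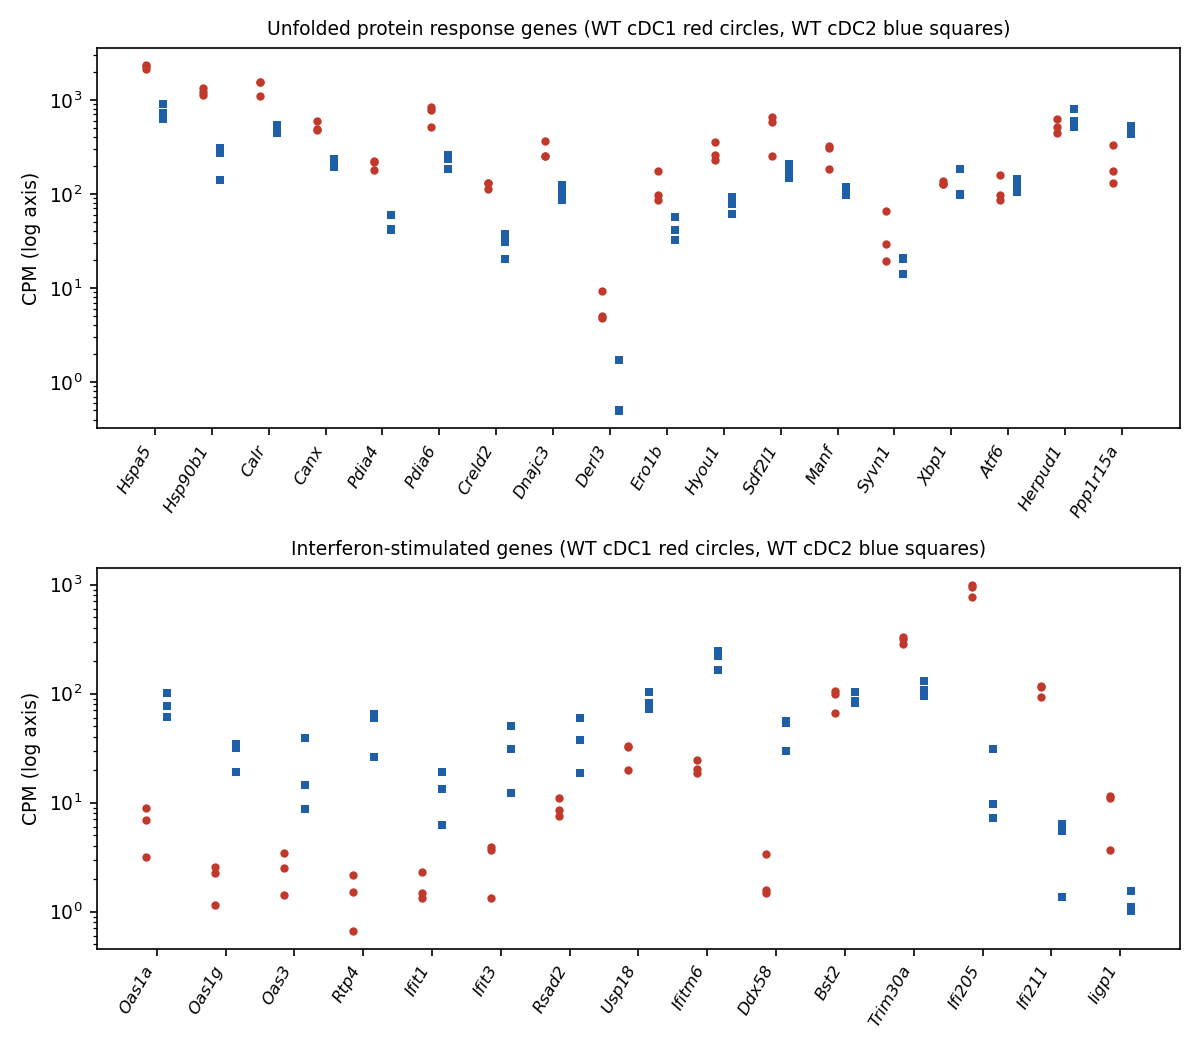
CPM on a log axis in each WT cDC1 library (red circles) and each WT cDC2 library (blue squares), for genes of the unfolded protein response and Ero1b (top) and for interferon-stimulated genes (bottom). In the top panel the chaperones from Hspa5 to Manf lie higher in cDC1 with no overlap (Sdf2l1 included), while Xbp1 overlaps; in the bottom panel Oas1a to Ddx58 lie higher in cDC2 and Trim30a to Iigp1 lie higher in cDC1.

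Genes of MHC class I presentation that passed were mostly higher in cDC1. Of 30 genes of MHC class I presentation, 11 were higher in cDC1 and 2 in cDC2 (median 0.44). The count in cDC1 was 7 without cDC1 WT replicate 2, and within replicates 2 and 3 the counts were 20 and 4, where 23.2% and 24.3% of all genes were called. The 6 WT libraries fitted alone with the mouse pool as a block gave 2 and 1. Pdia3, a disulphide isomerase of the peptide loading complex, had 1623, 2514 and 2663 CPM in WT cDC1 and 579, 620.2 and 537 CPM in WT cDC2 (log2 fold change 1.97, SE 0.23, adjusted p = 5.25e-05). Tapbpl, a peptide editor related to tapasin, had 104, 129 and 128 CPM in WT cDC1 and 45.5, 48.0 and 42.9 CPM in WT cDC2 (log2 fold change 1.40, SE 0.17, adjusted p = 7.08e-05). Tap1 and Tap2, which form the pump that brings peptides into the endoplasmic reticulum, were at 1.20 (SE 0.28) and 1.27 (SE 0.28), calls that ended in that fit (adjusted p = 0.0742 and 0.0938). The class I heavy chains H2-K1 and H2-D1 did not pass, at 0.31 with a 95% interval of -0.33 to 0.95 and 0.35 with a 95% interval of -0.23 to 0.94. The member furthest to the cDC2 side was H2-M2, a nonclassical class I molecule, with 33.0, 13.2 and 14.9 CPM in WT cDC1 and 138, 136 and 112 CPM in WT cDC2 (log2 fold change -2.66, SE 0.31, adjusted p = 5.99e-05). Proteasome genes (symbols beginning with Psm) leaned the same way, 8 of 45 higher in cDC1 and 0 in cDC2, and 32 within replicates 2 and 3.

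Genes of class II presentation were mixed. Of 19 genes, 2 were higher in cDC1 and 7 in cDC2 (median -0.18), and with the mouse pool as a block the former count was 1. It was 4 without cDC1 WT replicate 1, 0 without cDC1 WT replicate 2, and 1 without cDC1 WT replicate 3 or cDC2 WT replicate 2 or 3. Within replicates 2 and 3 the counts were 8 and 10. The beta chain of the main class II molecule did not pass: H2-Ab1 had 12590.0, 22940.0 and 23110.0 CPM in WT cDC1 and 14350.0, 14540.0 and 13940.0 CPM in WT cDC2, a log2 fold change of 0.45 with a 95% interval of -0.14 to 1.05. The invariant chain gene Cd74 had 20810.0, 25640.0 and 22730.0 CPM in WT cDC1 and 15090.0, 17050.0 and 14860.0 CPM in WT cDC2, at 0.56 with a 95% interval of -0.04 to 1.16. H2-Eb2, a paralog of the beta chain, had 127, 122 and 137 CPM in WT cDC1 and 624, 661 and 510.0 CPM in WT cDC2 (log2 fold change -2.22, SE 0.20, adjusted p = 6.92e-06). The 2 beta chain genes of H2-DM, the catalyst of peptide exchange, lay on opposite sides. H2-DMb2 had 88.9, 110.3 and 119 CPM in WT cDC1 and 506, 448 and 464 CPM in WT cDC2 (log2 fold change -2.16, SE 0.19, adjusted p = 6.51e-06), and H2-DMb1 had 713, 1039 and 1093 CPM in WT cDC1 and 629.7, 529.8 and 521 CPM in WT cDC2 (log2 fold change 0.76, SE 0.22, adjusted p = 0.0243). The call of H2-DMb1 ended with the mouse pool as a block (adjusted p = 0.0819) and without replicate 2 or 3 of either subset (adjusted p = 0.0742 to 0.0945), and that of H2-DMb2 in no alternative. The 2 genes are near copies of each other, so reads may have been split between them. Lgmn, an asparagine protease of class II processing, was higher in cDC2 (-0.95, SE 0.17).

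Lysosomal genes lay on both sides, with more of the large differences in cDC1. Of 75 genes, 16 were higher in cDC1 and 17 in cDC2, but of those past the test against 2-fold 12 were higher in cDC1 and 4 in cDC2. Ppt1, a palmitoyl thioesterase, had 4073, 6723 and 6974 CPM in WT cDC1 and 213, 164 and 173 CPM in WT cDC2 (log2 fold change 5.01, SE 0.29, adjusted p = 2.17e-07). Laptm4b, a lysosomal membrane protein, had 105, 96.5 and 94.9 CPM in WT cDC1 and 3.54, 1.67 and 1.27 CPM in WT cDC2 (log2 fold change 5.46, SE 0.46, adjusted p = 4.74e-06). Both genes were lower in every cDC2 library than in any cDC1 library by more than 10 times. The cDC2 side held Ctsa (-2.09, SE 0.18), Acp5 (-2.93, SE 0.24), Npc1 (-1.79, SE 0.30), the cholesterol exporter of the lysosome, and Lgmn (-0.95, SE 0.17). Rab GTPases, which steer vesicles, leaned to cDC1, 12 of 59 against 3 in cDC2. Rab32 had 307, 686 and 764 CPM in WT cDC1 and 118, 114 and 99.9 CPM in WT cDC2 (log2 fold change 2.40, SE 0.29, adjusted p = 8.42e-05). Rab7b, a regulator of traffic from endosomes, had 594, 394 and 371 CPM in WT cDC1 and 5.75, 0.744 and 0.546 CPM in WT cDC2 (log2 fold change 7.50, SE 0.80, adjusted p = 2.71e-05), while Rab31 did not pass (0.42 with a 95% interval of -0.02 to 0.86). Cybb, a subunit of the phagocyte NADPH oxidase that makes superoxide, had the opposite order. It had 18.6, 15.6 and 15.2 CPM in WT cDC1 and 395, 377 and 299.7 CPM in WT cDC2 (log2 fold change -4.44, SE 0.29, adjusted p = 7.01e-07), and Hvcn1, the proton channel that supports the oxidase, was at -3.32 (SE 0.33). Rab7b stood at a log2 fold change of 9.41 without cDC2 WT replicate 1.

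Surface receptors that read sugars, antibodies and self signals held the highest shares of called genes among the lists by function, those of known subset markers aside. Of 43 Fc and paired receptors, 5 were higher in cDC1 and 30 in cDC2 (median -2.58). Leaving out 1 library gave 28 to 31 in cDC2, and the count in cDC1 was 3 without replicate 2 of either subset. Of 51 C-type lectins and uptake receptors, 9 were higher in cDC1 and 26 in cDC2 (median -2.42). Fcer1g, the signalling chain of activating Fc receptors, had 21.7, 29.2 and 33.4 CPM in WT cDC1 and 670.4, 456 and 430.4 CPM in WT cDC2 (log2 fold change -4.21, SE 0.31, adjusted p = 1.64e-06). Klrd1, the CD94 chain better known on NK cells, had 6.54, 7.25 and 7.29 CPM in WT cDC1 and 212, 209 and 240.5 CPM in WT cDC2 (log2 fold change -4.97, SE 0.24, adjusted p = 8.76e-08). Cd300lf had 4.45, 5.82 and 6.59 CPM in WT cDC1 and 72.2, 118 and 136 CPM in WT cDC2 (log2 fold change -4.27, SE 0.28, adjusted p = 7.61e-07) and Lair1, an inhibitory receptor of collagen, had 15.8, 21.6 and 22.1 CPM in WT cDC1 and 172, 258 and 240.3 CPM in WT cDC2 (log2 fold change -3.49, SE 0.24, adjusted p = 8.38e-07). Cd209a, a relative of DC-SIGN, had 7.92, 7.30 and 8.21 CPM in WT cDC1 and 552, 251 and 208 CPM in WT cDC2 (log2 fold change -5.43, SE 0.38, adjusted p = 1.17e-06). On the cDC1 side, Treml4 had 253, 346 and 311 CPM in WT cDC1 and 55.2, 64.8 and 67.6 CPM in WT cDC2 (log2 fold change 2.28, SE 0.20, adjusted p = 5.66e-06) and Clec12a, a lectin that senses uric acid crystals, had 234, 404 and 454 CPM in WT cDC1 and 92.1, 64.3 and 80.2 CPM in WT cDC2 (log2 fold change 2.21, SE 0.25, adjusted p = 4.90e-05). Clec12a was in the list of known cDC2 markers and went against it. Cd36, a scavenger receptor, was at 5.20 (SE 0.47). The inhibitory Fc receptor gene Fcgr2b did not pass (0.30 with a 95% interval of -0.26 to 0.85). Downstream of such receptors, Clnk, an adaptor, had 15.7, 18.5 and 16.4 CPM in cDC1 and no read in cDC2, at least 344-fold higher, whereas Fgr, a kinase of the SRC family, and Ptpn6, the phosphatase SHP-1, were higher in cDC2 at -2.93 (SE 0.22) and -1.78 (SE 0.20).

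Many of these receptors are neighbours on a chromosome, and the stretches show where the direction changes (positions on GRCm38). On chromosome 6, from 122921848 to 123289871, 9 tested genes of the DCIR and Dectin-2 lectins included 7 higher in cDC2 and 1 higher in cDC1. The exception was Clec4b2, with 26.4, 40.7 and 54.1 CPM in WT cDC1 and 0.911, 0 and 0.182 CPM in WT cDC2 (log2 fold change 6.58, SE 0.72, adjusted p = 3.17e-05), which lies next to Clec4a2, higher in cDC2 at -5.54 (SE 0.57). Clec4a1, a DCIR relative in the same stretch, had 3.24, 4.49 and 4.51 CPM in WT cDC1 and 164, 117 and 73.7 CPM in WT cDC2 (log2 fold change -4.86, SE 0.32, adjusted p = 7.61e-07). On chromosome 19, from 11249679 to 11604804, 9 of 10 tested genes that lie in the Ms4a cluster were higher in cDC2, led by Ms4a4c with 9.62, 13.9 and 15.3 CPM in WT cDC1 and 238, 290.4 and 301 CPM in WT cDC2 (log2 fold change -4.42, SE 0.23, adjusted p = 1.21e-07). The Cd300 stretch on chromosome 11, from 114851150 to 115162773, had 10 of 13 higher in cDC2. Pirb, Pira2, Lilra6 and Lair1 lie in a run of 8 neighbours on chromosome 7 that were all higher in cDC2, with Pira2 (-2.92, SE 0.20) and Lilra6 (-3.44, SE 0.33) among them. A run of 7 on chromosome 17 holds cytochrome P450 genes, with Cyp4f16 at 24.1, 25.1 and 26.9 CPM in WT cDC1 and 398, 436 and 464 CPM in WT cDC2 (log2 fold change -4.09, SE 0.20, adjusted p = 8.76e-08). The stretch of Dectin-1 and killer-type lectins on chromosome 6, from 129267324 to 129623903, was mixed, with 3 genes each way: Clec12a, Clec9a and Klrk1 in cDC1, and Cd69, Clec7a and Klrd1 in cDC2. In the MHC class II region of chromosome 17, from 34119693 to 34341410, the 5 consecutive genes from H2-DMb1 to Tap2 were higher in cDC1. Of these, Psmb8 and Psmb9, the immunoproteasome subunits, lost their calls with the mouse pool as a block (adjusted p = 0.132 and 0.0695), and without cDC1 WT replicate 2 (adjusted p = 0.132 and 0.101), cDC1 WT replicate 3 (0.137 and 0.104), cDC2 WT replicate 1 (0.0533 and 0.0689) or cDC2 WT replicate 2 (0.106 and 0.0838). Members of these families resemble each other, so reads may have been shared between neighbours and the value of a single paralog is uncertain. Clec7a stood at a log2 fold change of -4.06 without cDC1 WT replicate 1. Clec4b2 stood at a log2 fold change of 9.20 and Clec4a2 at -4.79 without cDC2 WT replicate 1. Clec4b2 stood at a log2 fold change of 5.98 without cDC2 WT replicate 2.

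**Figure D4:**
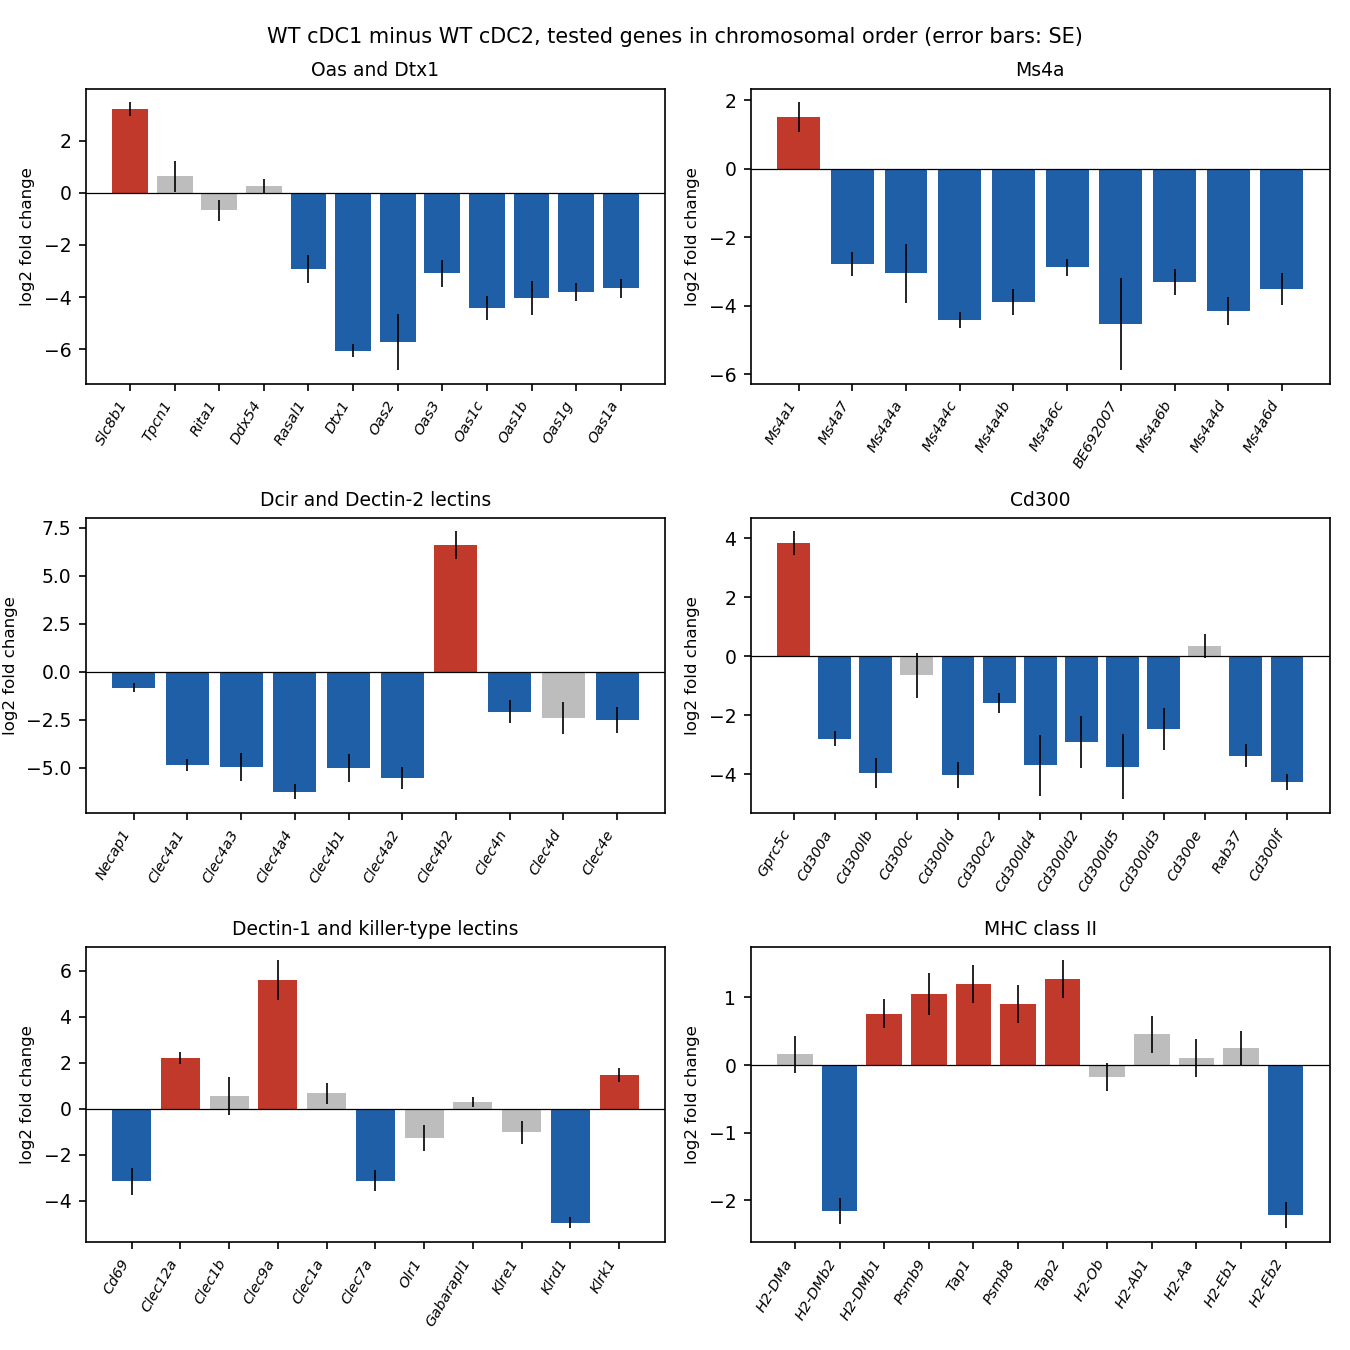
Log2 fold change of WT cDC1 over WT cDC2 with its SE for the tested genes of 6 chromosomal stretches, in chromosomal order. Red bars are called higher in WT cDC1, blue bars higher in WT cDC2 and grey bars not called; Clec4b2 is the 1 red bar of its stretch, the Ms4a and Cd300 stretches are blue except at an edge or where grey, and the class II stretch has 5 adjacent red bars.

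Interferon-stimulated genes that passed were mostly higher in cDC2, with exceptions that were large. Of 69 genes, 6 were higher in cDC1 and 31 in cDC2 (median -0.94), and 4 and 20 of these passed the test against 2-fold. Leaving out 1 library gave 23 to 36 higher in cDC2. Oas1a, an oligoadenylate synthetase whose product activates RNase L, had 3.13, 8.83 and 6.88 CPM in WT cDC1 and 61.3, 102 and 76.3 CPM in WT cDC2 (log2 fold change -3.67, SE 0.36, adjusted p = 1.34e-05). Rtp4, a chaperone of receptors, had 0.660, 2.14 and 1.503 CPM in WT cDC1 and 26.3, 65.03 and 59.7 CPM in WT cDC2 (log2 fold change -5.12, SE 0.48, adjusted p = 9.74e-06). Ifitm6 had 20.3, 18.6 and 24.8 CPM in WT cDC1 and 163, 219 and 247 CPM in WT cDC2 (log2 fold change -3.31, SE 0.22, adjusted p = 7.61e-07). Ddx58, the gene of the viral RNA sensor RIG-I, had 3.35, 1.48 and 1.56 CPM in WT cDC1 and 29.8, 56.1 and 53.6 CPM in WT cDC2 (log2 fold change -4.44, SE 0.42, adjusted p = 1.06e-05). In Rtp4, replicate 1 was the lowest of the cDC2 libraries and still over 10 times the highest cDC1 library. A stretch of chromosome 5 that ends with Oas1a, from 120648040 to 120907544, holds 8 neighbours all higher in cDC2, Dtx1 among them with 2.69, 2.04 and 2.72 CPM in WT cDC1 and 148, 159 and 194 CPM in WT cDC2 (log2 fold change -6.07, SE 0.25, adjusted p = 4.67e-08). Dtx1, a Notch target and regulator, is not an interferon gene. On the cDC1 side stood 2 members of the PYHIN family of DNA-binding proteins, Ifi205 with 766, 988 and 945 CPM in WT cDC1 and 31.0, 9.76 and 7.20 CPM in WT cDC2 (log2 fold change 5.80, SE 0.55, adjusted p = 1.05e-05) and Ifi211 with 92.8, 115 and 117 CPM in WT cDC1 and 6.38, 5.44 and 1.37 CPM in WT cDC2 (log2 fold change 4.58, SE 0.43, adjusted p = 1.01e-05), and Trim30a with 283, 319 and 332 CPM in WT cDC1 and 95.8, 132 and 108 CPM in WT cDC2 (log2 fold change 1.48, SE 0.25, adjusted p = 9.83e-04). The PYHIN family did not lie on the cDC1 side as a whole: another member was higher in cDC2, at -2.20, and others did not pass. Iigp1, a GTPase that acts on vacuoles of parasites, was at 2.83 (SE 0.46). Irf7, a transcription factor of the interferon response, did not pass, at 0.56 with a 95% interval of -0.07 to 1.19. Ifi205 stood at a log2 fold change of 6.72 without cDC2 WT replicate 1.

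The interferon-stimulated response element, searched as GAAANNGAAA on both strands in the same promoter windows, overlaps in its letters with elements that other IRF proteins bind. It was in 291 of 10086 tested promoters (2.89%), in 29 of 1081 higher in cDC1 (2.68%) and in 58 of 1100 higher in cDC2 (5.27%). The motif is named for genes of this kind, so matches in the list of interferon-stimulated genes were likely from the start. It was in 29 of the 52 members with a promoter (55.8%), in 16 of the 24 higher in cDC2 and in 3 of the 4 higher in cDC1. These 16 are among the 58 of all genes higher in cDC2, so the share of 5.27% is not separate from the list. The sites of 2 genes higher in cDC2 and 2 higher in cDC1 are shown, capitals marking the motif, because the same letters stand before genes of opposite direction.
Oas1a: ctcggGAAATGGAAActgaa
Ddx60: gaatgGAAACCGAAActtaa
Ifi205: ccaggGAAATTGAAAgctat
Ifi211: ccaggGAAATTGAAAgctat

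The Oas1a site starts 20 bases before the gene's start, the Ddx60 site 53, the Ifi205 site 134 and the Ifi211 site 37, and Oas1a and Ddx60 each hold another match nearer the start, at 14 and 19 bases. Ddx60 was at -4.64 (SE 0.51). The 20 bases shown are the same letters in Ifi205 and Ifi211, which are neighbours on chromosome 1 and close copies, so their reads may have been shared too.

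Innate sensors that passed were mostly higher in cDC2. Of 50 pattern recognition receptors and their adaptors, 16 were higher in cDC2 and 5 in cDC1, the latter a share near the 10.4% of all genes. Tlr3, the endosomal receptor of double-stranded RNA, had 248, 350.5 and 322 CPM in WT cDC1 and 6.94, 5.25 and 2.19 CPM in WT cDC2 (log2 fold change 5.97, SE 0.41, adjusted p = 1.04e-06). Tlr11, a receptor of the profilin of parasites, had 306, 372 and 322 CPM in WT cDC1 and 18.1, 19.7 and 15.9 CPM in WT cDC2 (log2 fold change 4.21, SE 0.36, adjusted p = 5.27e-06), and Ticam1, the adaptor of TLR3, was higher in cDC1 at 1.36 (SE 0.28). In cDC2, Tlr7, the endosomal receptor of single-stranded RNA, had 3.13, 2.40 and 2.95 CPM in WT cDC1 and 23.6, 58.8 and 51.1 CPM in WT cDC2 (log2 fold change -3.97, SE 0.64, adjusted p = 6.83e-04). Slc15a4, a transporter that TLR7 and TLR9 need, had 38.3, 36.2 and 31.3 CPM in WT cDC1 and 195, 165 and 169 CPM in WT cDC2 (log2 fold change -2.32, SE 0.19, adjusted p = 3.86e-06). Tlr1, a partner of TLR2, had 7.20, 7.45 and 6.82 CPM in WT cDC1 and 89.4, 91.2 and 86.2 CPM in WT cDC2 (log2 fold change -3.63, SE 0.23, adjusted p = 4.86e-07), and Ticam2, the adaptor of TLR4, was at -3.90 (SE 0.26). Tlr3 and Ticam1 thus lay on 1 side and Tlr7 and Slc15a4 on the other, while the adaptors Ticam1 and Ticam2 lay on opposite sides. The call of Ticam1 ended in the fit of the 6 WT libraries alone with the mouse pool as a block (adjusted p = 0.0943). Other adaptors and helpers of the list, Myd88 and Unc93b1 among them, are not reported here. Of 35 NF-kB genes, 3 were higher in cDC1 and 12 in cDC2 (1 and 10 with the mouse pool as a block), with Nfkb1 (-1.54, SE 0.26), Relb (-1.81, SE 0.31), Bcl3 (-2.13, SE 0.20) and Ripk2 (-2.02, SE 0.22) in cDC2. Of 28 immediate early and heat shock genes, 0 were higher in cDC1 and 8 in cDC2, Egr1 with 272, 233 and 181 CPM in WT cDC1 and 505, 790.2 and 736 CPM in WT cDC2 (log2 fold change -1.57, SE 0.27, adjusted p = 0.00103) among them. The last count was 5 without cDC1 WT replicate 2 or 3, and 21 within replicates 2 and 3, where replicate 1 of every group, WT and KO, is absent.

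Transcription factors were mostly higher in cDC2 where they differed. Of 104 tested, 9 were higher in cDC1 and 29 in cDC2, and 5 and 19 passed the test against 2-fold. Within replicates 2 and 3 the counts were 12 and 63. Beyond Irf8, Mycl, a MYC family member, had 359.9, 405 and 366 CPM in WT cDC1 and 153, 89.5 and 78.6 CPM in WT cDC2 (log2 fold change 1.81, SE 0.27, adjusted p = 3.95e-04). Rxra, a nuclear receptor of retinoids, had 57.5, 31.6 and 22.3 CPM in WT cDC1 and 5.05, 7.76 and 9.65 CPM in WT cDC2 (log2 fold change 2.32, SE 0.35, adjusted p = 3.85e-04), and Id2, an inhibitor of E proteins, was at 1.46 (SE 0.32). Both of these calls ended in the fit of the 6 WT libraries alone with the mouse pool as a block (adjusted p = 0.09 and 0.0545). In cDC2, Tbx21, which encodes T-bet, had 2.47, 1.89 and 1.10 CPM in WT cDC1 and 45.5, 37.9 and 40.4 CPM in WT cDC2 (log2 fold change -4.50, SE 0.32, adjusted p = 1.43e-06). Spib, an Ets factor better known in plasmacytoid and B cells, had 9.90, 5.05 and 5.03 CPM in WT cDC1 and 115, 71.9 and 66.3 CPM in WT cDC2 (log2 fold change -3.66, SE 0.38, adjusted p = 1.92e-05). Stat4, a carrier of IL-12 signals, had 3.63, 2.40 and 2.08 CPM in WT cDC1 and 34.7, 29.9 and 22.4 CPM in WT cDC2 (log2 fold change -3.42, SE 0.26, adjusted p = 2.12e-06). Id3, a relative of Id2, was on the other side, with 0.385, 0.612 and 0.925 CPM in WT cDC1 and 6.00, 6.55 and 6.83 CPM in WT cDC2 (log2 fold change -3.33, SE 0.38, adjusted p = 4.43e-05). Batf3, which cDC1 need, did not pass (0.45 with a 95% interval of -0.01 to 0.91). Of 20 pairs of related genes chosen for comparison, 10 had 1 member higher in each subset and 1 had both members higher in cDC1. In 5 pairs only 1 member was called, in 3 neither was, and 1 pair had a member that was not tested. The pairs were chosen with earlier results of these data known, and several hold known subset markers, so the count of 10 is no test. The 10 pairs included Cadm1 (6.72, SE 0.53) and Cadm3 (-4.63, SE 0.41), adhesion molecules of 1 family. Itgae and Itgam, integrin alpha chains at 8.75 (SE 0.87) and -4.88 (SE 0.42), and Sema4a and Sema4d, semaphorins at 2.85 (SE 0.37) and -1.66 (SE 0.25), were also among them. Both chemokines Cxcl9 and Cxcl16 were higher in cDC1. Cadm3 stood at a log2 fold change of -5.36 without cDC1 WT replicate 1. Cadm1 stood at a log2 fold change of 7.35 without cDC2 WT replicate 1. Itgae stood at a log2 fold change of 8.03 without cDC2 WT replicate 2. Itgae stood at a log2 fold change of 10.74 without cDC2 WT replicate 3.

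Cytokines and their receptors were called on both sides. Of 59 cytokines and chemokines, 12 were higher in cDC1 and 19 in cDC2, the latter count being 10 without cDC1 WT replicate 2 and 12 without cDC1 WT replicate 3. Cxcl9, a ligand of CXCR3 on T cells, had 567, 615 and 606 CPM in WT cDC1 and 19.7, 19.7 and 5.10 CPM in WT cDC2 (log2 fold change 5.32, SE 0.49, adjusted p = 8.70e-06). Il15, which sustains NK and memory CD8 T cells, had 23.8, 29.2 and 31.6 CPM in WT cDC1 and 8.24, 5.90 and 7.29 CPM in WT cDC2 (log2 fold change 1.98, SE 0.24, adjusted p = 7.31e-05), and Ccl2 was at 3.42 (SE 0.37). Ltb, a chain of lymphotoxin, had 19.96, 29.2 and 30.4 CPM in WT cDC1 and 546, 420.1 and 399 CPM in WT cDC2 (log2 fold change -4.10, SE 0.24, adjusted p = 2.61e-07). Ccl9 had 4.62, 3.88 and 3.30 CPM in WT cDC1 and 205, 77.8 and 89.3 CPM in WT cDC2 (log2 fold change -4.98, SE 0.49, adjusted p = 1.47e-05), and Tnfsf14, the ligand LIGHT, had 1.16, 3.11 and 3.82 CPM in WT cDC1 and 12.6, 51.8 and 47.5 CPM in WT cDC2 (log2 fold change -3.79, SE 0.53, adjusted p = 2.49e-04). Tnfsf14 was lowest in replicate 1 in both subsets. Il12b, the shared subunit of IL-12 and IL-23, had 224, 45.8 and 45.7 CPM in WT cDC1 and 2.59, 9.30 and 8.38 CPM in WT cDC2 (log2 fold change 3.98, SE 0.66, adjusted p = 8.19e-04), with cDC1 WT replicate 1 far above the other 5 libraries, and the call ended in the fit of the 6 WT libraries alone with the mouse pool as a block (adjusted p = 0.121). Il12b stood at a log2 fold change of 2.78 without cDC1 WT replicate 1. Of 71 cytokine and growth factor receptors, 10 were higher in cDC1 and 15 in cDC2, the former count being 6 without cDC1 WT replicate 1, cDC1 WT replicate 2 or cDC2 WT replicate 2, and with the mouse pool as a block. Acvrl1, a receptor of BMP9, had 155, 143 and 127 CPM in WT cDC1 and 24.8, 18.6 and 17.6 CPM in WT cDC2 (log2 fold change 2.79, SE 0.24, adjusted p = 4.46e-06). Csf1r, the receptor of M-CSF, had 25.2, 27.0 and 26.2 CPM in WT cDC1 and 132, 242 and 231 CPM in WT cDC2 (log2 fold change -2.94, SE 0.36, adjusted p = 8.37e-05), and Il2rg, the common gamma chain, had 37.3, 26.1 and 23.6 CPM in WT cDC1 and 199, 177 and 163 CPM in WT cDC2 (log2 fold change -2.63, SE 0.23, adjusted p = 7.01e-06).

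Receptors that guide position also lay on both sides. Of 67 chemoattractant and lipid receptors, 13 were higher in cDC1 and 24 in cDC2. P2ry14, a receptor of UDP-glucose, had 174, 191 and 200.1 CPM in WT cDC1 and 4.00, 0.930 and 4.10 CPM in WT cDC2 (log2 fold change 5.99, SE 0.50, adjusted p = 4.50e-06). Hrh1, a histamine receptor, had 1.16, 0.969 and 0.578 CPM in WT cDC1 and 34.7, 27.3 and 38.2 CPM in WT cDC2 (log2 fold change -5.20, SE 0.33, adjusted p = 5.31e-07), and Ffar2, a receptor of short-chain fatty acids, had 27.4, 44.0 and 40.9 CPM in WT cDC1 and 335, 364 and 367 CPM in WT cDC2 (log2 fold change -3.25, SE 0.22, adjusted p = 7.61e-07). Cx3cr1, the fractalkine receptor, had 2.09, 1.38 and 1.74 CPM in WT cDC1 and 69.3, 29.3 and 30.4 CPM in WT cDC2 (log2 fold change -4.63, SE 0.46, adjusted p = 1.47e-05), with replicate 1 highest in cDC2. Ccr7, which brings dendritic cells to T cell zones, did not pass (-0.82 with a 95% interval of -1.63 to -0.02). Of 56 costimulatory and contact ligands, 9 were higher in cDC1 and 20 in cDC2, the former count being 5 without cDC1 WT replicate 1 or cDC2 WT replicate 3. Cd86, a ligand of CD28, had 380.4, 739 and 903 CPM in WT cDC1 and 107, 136 and 167 CPM in WT cDC2 (log2 fold change 2.30, SE 0.35, adjusted p = 4.15e-04), while its relative Cd80 did not pass (-0.27 with a 95% interval of -0.81 to 0.28). Btla, an inhibitory receptor, had 502, 910.2 and 1002 CPM in WT cDC1 and 133, 94.5 and 106 CPM in WT cDC2 (log2 fold change 2.85, SE 0.30, adjusted p = 2.42e-05), and Havcr2, which encodes TIM-3, had 464, 472 and 458 CPM in WT cDC1 and 122, 173 and 183 CPM in WT cDC2 (log2 fold change 1.55, SE 0.20, adjusted p = 1.34e-04). Pdcd1lg2, the PD-1 ligand PD-L2, had 4.07, 3.11 and 2.43 CPM in WT cDC1 and 51.8, 41.2 and 49.0 CPM in WT cDC2 (log2 fold change -3.88, SE 0.28, adjusted p = 1.43e-06), and Cd72 had 1.65, 1.38 and 2.02 CPM in WT cDC1 and 55.2, 51.0 and 55.1 CPM in WT cDC2 (log2 fold change -5.00, SE 0.27, adjusted p = 1.48e-07). Cd44, Cd81 and Sema4f were higher in cDC1 at 1.42 (SE 0.27), 3.20 (SE 0.38) and 3.88 (SE 0.36), and Esam and Itgb3 in cDC2 at -3.11 (SE 0.21) and -5.43 (SE 0.39).

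Genes of lipid mediators and of sugar use were called on both sides. Of 32 genes of the prostaglandin and leukotriene pathway, 6 were higher in cDC1 and 12 in cDC2. Ptgs2 was high in cDC2, as given above. Tbxas1, the thromboxane synthase that uses its product, had 45.2, 57.8 and 55.6 CPM in WT cDC1 and 8.97, 6.51 and 6.01 CPM in WT cDC2 (log2 fold change 2.88, SE 0.25, adjusted p = 5.66e-06), the opposite order. The prostaglandin E2 receptor gene Ptger2 had 4.51, 9.80 and 6.94 CPM in WT cDC1 and 0.245, 0.186 and 0 CPM in WT cDC2 (log2 fold change 5.36, SE 0.73, adjusted p = 1.99e-04), Ptger3 had 0.880, 0.816 and 0.694 CPM in WT cDC1 and 25.7, 45.2 and 35.6 CPM in WT cDC2 (log2 fold change -5.47, SE 0.53, adjusted p = 1.23e-05), and Ptger4 did not pass (-0.28 with a 95% interval of -0.88 to 0.32). Receptors of the same ligand thus stood on opposite sides. Of 35 genes of glycolysis and the pentose phosphate pathway, 9 were higher in cDC1 and 6 in cDC2, and without cDC2 WT replicate 2 the former count was 4. Hk3, a hexokinase, had 148, 149 and 127 CPM in WT cDC1 and 2.07, 5.16 and 4.64 CPM in WT cDC2 (log2 fold change 5.17, SE 0.46, adjusted p = 6.45e-06), and Pfkp, a phosphofructokinase, had 157, 151 and 140.2 CPM in WT cDC1 and 19.2, 24.3 and 28.2 CPM in WT cDC2 (log2 fold change 2.65, SE 0.35, adjusted p = 1.59e-04). The lactate transporters split, Slc16a1 at 2.25 (SE 0.37) and Slc16a3 at -2.86 (SE 0.29). Of 79 genes of lipid uptake and metabolism, 19 were higher in cDC1 and 16 in cDC2, with Plin2, a coat protein of lipid droplets, at 121, 228 and 225 CPM in WT cDC1 and 20.7, 23.5 and 23.6 CPM in WT cDC2 (log2 fold change 3.08, SE 0.25, adjusted p = 3.33e-06) and Fabp5, a fatty acid carrier, at 2.97, 1.53 and 2.25 CPM in WT cDC1 and 41.2, 26.9 and 23.2 CPM in WT cDC2 (log2 fold change -3.76, SE 0.42, adjusted p = 3.82e-05).

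Enzymes that build glycans leaned to cDC2. Of 60 glycosyltransferases and sulphotransferases, 8 were higher in cDC1 and 23 in cDC2 (median -0.60), and without cDC1 WT replicate 2 the count in cDC2 was 12. B4galt6, a lactosylceramide synthase, had 8.69, 6.02 and 6.94 CPM in WT cDC1 and 115, 101 and 118 CPM in WT cDC2 (log2 fold change -3.95, SE 0.22, adjusted p = 2.07e-07). St8sia1, the synthase of ganglioside GD3, had 6.27, 2.75 and 2.25 CPM in WT cDC1 and 165, 82.0 and 82.6 CPM in WT cDC2 (log2 fold change -4.87, SE 0.42, adjusted p = 5.66e-06), and St8sia6 had 11.99, 4.80 and 4.92 CPM in WT cDC1 and 133, 137 and 122 CPM in WT cDC2 (log2 fold change -4.17, SE 0.34, adjusted p = 3.97e-06). St3gal5, the synthase of ganglioside GM3, from which GD3 is made, had 173, 162 and 154 CPM in WT cDC1 and 45.1, 54.0 and 48.8 CPM in WT cDC2 (log2 fold change 1.73, SE 0.33, adjusted p = 0.00229), so successive enzymes of 1 route lay on opposite sides. Man1a, a Golgi mannosidase, had 73.8, 56.0 and 48.5 CPM in WT cDC1 and 694, 440.2 and 394 CPM in WT cDC2 (log2 fold change -3.10, SE 0.29, adjusted p = 9.15e-06). In cDC1, B3gnt5 was at 3.53 (SE 0.36) and Galnt7 at 3.06 (SE 0.45). Of 25 S100 proteins, annexins and galectins, 4 were higher in cDC1 and 9 in cDC2. S100a4 had 38.0, 41.0 and 41.3 CPM in WT cDC1 and 3353, 2732 and 3960.0 CPM in WT cDC2 (log2 fold change -6.38, SE 0.47, adjusted p = 1.86e-06), and S100a6 had 32.4, 51.8 and 54.9 CPM in WT cDC1 and 1024, 841 and 1033 CPM in WT cDC2, while their neighbour S100a1 had the opposite order with 10.4, 23.9 and 30.5 CPM in WT cDC1 and 6.80, 6.65 and 5.92 CPM in WT cDC2 (log2 fold change 1.74, SE 0.38, adjusted p = 0.00600). Anxa1, an annexin that limits inflammation, was higher in cDC1 at 1.44 (SE 0.27).

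Housekeeping programmes held few calls in all 3 pools together and more within replicates 2 and 3. Of 75 nuclear genes of oxidative phosphorylation, 1 was higher in cDC1 and 0 in cDC2, and within replicates 2 and 3 the counts were 27 and 2. Of 85 genes of cytosolic ribosomal proteins, 0 and 2 were called, and within replicates 2 and 3 the counts were 7 and 27. Their median log2 fold change was -0.61, to the cDC2 side, against 0.02 over all genes tested, so few calls do not mean no difference. For 77 mitochondrial ribosomal proteins the counts were 2 and 0, and 29 and 3. Of 50 cell cycle genes, 1 was higher in cDC1 and 5 in cDC2, with Ccnd1 (-1.92, SE 0.30) and E2f2 (-2.32, SE 0.27) in cDC2, and within replicates 2 and 3 the counts were 15 and 10. Of 13 mitochondrially encoded mRNAs, 0 passed in edgeR's test, 0 were at an unadjusted p below 0.05, and 0 passed in DESeq2 or limma-voom. Within replicates 2 and 3 the count of these mRNAs higher in cDC2 was 10. The wider calling within replicates 2 and 3 applies to all genes, of which 23.2% and 24.3% were called there, so these shares are to be read against those.

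Of 18 genes known in both subsets, 12 did not pass the test, 4 were higher in cDC1 and 2 in cDC2, and with the mouse pool as a block 1 was higher in cDC1. With 1 library left out the counts were 1 to 4 in cDC1 and 1 to 6 in cDC2, the last without cDC1 WT replicate 1, and within replicates 2 and 3 they were 5 and 10. Zbtb46, a transcription factor of conventional dendritic cells, had 77.1, 111 and 108 CPM in WT cDC1 and 95.5, 123 and 146 CPM in WT cDC2 (log2 fold change -0.30 with a 95% interval of -0.85 to 0.25). Itgax, which encodes CD11c, had 867, 498 and 411 CPM in WT cDC1 and 1250.0, 870.1 and 858 CPM in WT cDC2 (-0.75 with a 95% interval of -1.43 to -0.06). Spi1, which encodes PU.1, had 458, 354 and 318 CPM in WT cDC1 and 451, 486 and 465 CPM in WT cDC2 (-0.31 with a 95% interval of -0.76 to 0.14), and Ptprc, which encodes CD45, was at -0.64 with a 95% interval of -1.40 to 0.12. The intervals reach beyond a 2-fold difference for Itgax and Ptprc and stay within it for Zbtb46 and Spi1. Flt3, the receptor of the growth factor of dendritic cells, was called at 0.80 (SE 0.26), and Zfp366 itself at 0.84 (SE 0.27) with 152, 89.2 and 67.5 CPM in WT cDC1 and 52.5, 62.4 and 57.4 CPM in WT cDC2. With the mouse pool as a block both calls ended (adjusted p = 0.055 and 0.119), and they ended without each WT library other than cDC1 WT replicate 3, at adjusted p = 0.0505 to 0.125 for Flt3 and 0.0609 to 0.126 for Zfp366.

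The subset contrast of the KO mice, which shares no library with the WT contrast, had the same sign for 93.2% of the genes called in WT. Both contrasts come from the same fit and share its estimate of the spread. Their log2 fold changes correlated (Pearson) at 0.76 over all genes tested and at 0.86 over the genes called in WT. In KO, 2264 genes were called (16.9%). Of the 2846 genes called in WT, 2652 had the sign of WT in KO, 1500 were called in the same direction and 21 in the opposite one, that is 52.7% of the WT calls and 66.3% of the KO calls shared. The difference between the contrasts was called for 190 genes (1.42% of all tested), 165 of them among the WT calls. The WT log2 fold change lay further to the cDC2 side in 170 of them and further to the cDC1 side in 20. The count was 5157 within replicates 2 and 3, 1803 without mouse pool 4 and 480 with DESeq2. It was 501 without cDC1 WT replicate 1, 110 without cDC1 WT replicate 2 and 116 with the mouse pool as a replicate block. The 8 genes with the smallest p of the difference were Dtx1, Skint3, Cd72, Mmp12, Fcer1g, Ptpro, Gbp2 and Cybb, and in each the log2 fold change lay further to the cDC2 side in WT. The WT call of Gbp2 ended with the mouse pool as a block (adjusted p = 0.0965) and without replicate 2 or 3 of either subset (adjusted p = 0.0754 to 0.123). For Dtx1 the log2 fold change was -6.07 (SE 0.25) in WT and -2.40 in KO, a difference of -3.66 (SE 0.29, adjusted p = 1.86e-04). For Cd72 it was -5.00 (SE 0.27) and -1.12, a difference of -3.87 (SE 0.33, adjusted p = 1.86e-04). Fcer1g went from -4.21 (SE 0.31) in WT to -0.48 in KO, and Itgam from -4.88 (SE 0.42) to -0.12. For the cDC1 genes Xcr1, Tlr3 and Ppt1 the KO values were 7.82, 5.92 and 3.91, and their differences did not pass. The chaperones stood at 0.98 (Hspa5), 1.31 (Hsp90b1) and 0.90 (Pdia4) in KO, below their WT values, and these differences did not pass either.

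**Figure D5:**
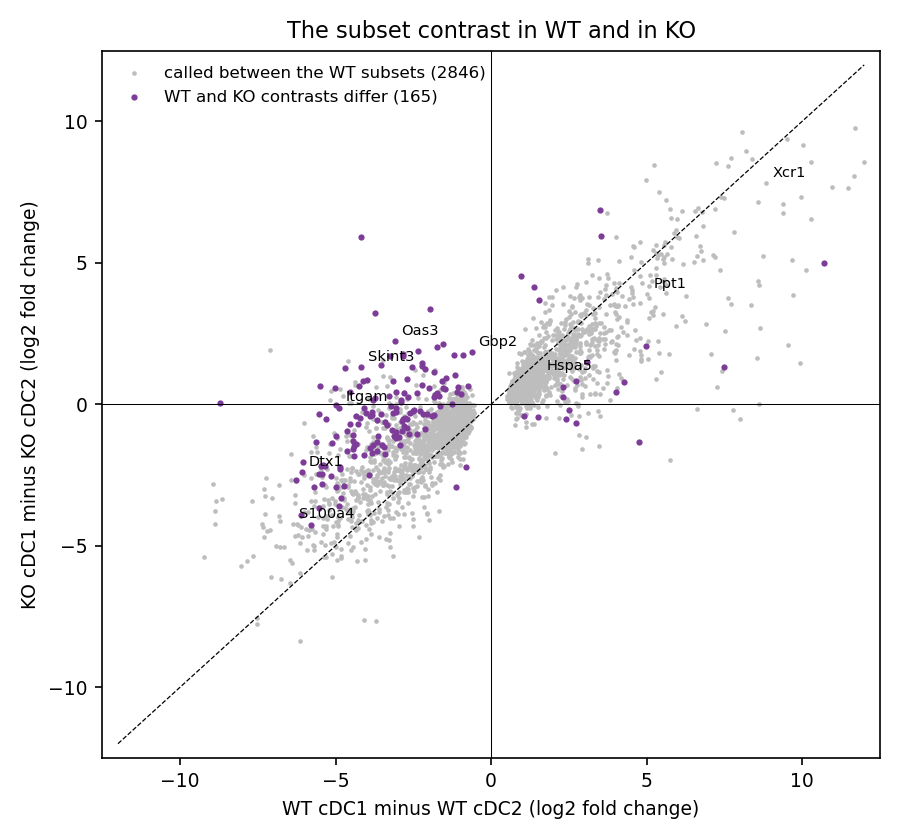
Log2 fold change of cDC1 over cDC2 in KO (vertical axis) against that in WT (horizontal axis), 1 point per gene called between the WT subsets (2846). Purple points are the 165 of these whose WT and KO contrasts differed at an adjusted p below 0.05, and the dashed line marks equal values; most purple points lie left of 0 and above the line, among them Dtx1, Itgam and Skint3.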

How the data were processed

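Poly(A) RNA of splenic dendritic cells was read in 12 libraries, 3 in each of 4 groups. The deposited values are raw counts of reads per gene for 27179 genes, made by the authors with featureCounts on GRCm38 (mm10), per the submitters' processing notes. The aligner and the strand setting are not given in the sources used here, so reads of overlapping, antisense or near-identical genes cannot be told apart. Symbols were matched through RefSeq for 25275 genes, and 1886 genes without a symbol hold 2.22% of the reads.

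Genes were kept by filterByExpr, scaled by TMM and fitted over all 4 groups with edgeR 4.0.16 in R 4.3.3 (quasi-likelihood test, Benjamini-Hochberg adjustment over 13415 genes, threshold 0.05), and glmTreat tested against a 2-fold difference. The fit called 100%, 86.6% and 11.9% of genes changed 16-fold, 4-fold and 2-fold when tested on simulated data for the WT contrast with 13032 unchanged genes. Only 66, 67 and 67 genes were changed at these sizes, a far smaller share than the 21.2% called in the data. The adjustment depends on that share, so these rates need not hold for the data. CPM are scaled by TMM. For a gene without reads in a group, folds were computed against 3 reads over the group, and intervals of ratios of few reads are exact, at 95%, and cover counting error only. Alternatives used other scalings and filters, DESeq2 1.42.0, limma 3.58.1 (voom), the mouse pool as a block, gene length offsets, and each WT library left out.

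Both WT libraries of a pool come from the same mice per the labels, so the pool pairs them. The deviations of libraries of 1 pool from their group means correlated at -0.2, -0.11 and -0.07 in WT and at 0.26, 0.14 and 0.14 in KO. Each pool gave 1 library of each subset, and the fit without the block does not use this pairing. Its p-values rest on a spread estimated within all 4 groups together, the KO libraries included, and not on the WT pools alone. The genes named were the 6 label markers, the 12 largest folds (mean of at least 20 CPM) and the 8 largest CPM differences per subset outside the lists of known subset markers and predicted genes, up to 4 members per list and direction by smallest p (mean of at least 5 CPM) with a defining member that did not pass, related pairs, shared dendritic cell genes, neighbours of 1 direction, and the 8 smallest p between WT and KO. Hspa1a, Siglech, Cd69, Ddx60, Pdia6, Dnajc3, Derl3, Ero1b, Adcy3, Syvn1, Alg12 and further members that did not pass fall outside this rule and were chosen after their values were seen. Some genes that the rule selects are not reported here. The members and lists were chosen with earlier results of these data known.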

Additional observations from a re-analysis of the deposited data

Results flagged for a closer look

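For 190 genes the cDC1 over cDC2 difference itself differed between WT and KO at an adjusted p below 0.05 in edgeR's quasi-likelihood test, and those described above are given here with the WT minus KO difference of the log2 fold change. Of the 190, 170 differences are negative, with the log2 fold change further to the cDC2 side in WT, and 20 are positive. All of those given here are negative. Among immune receptors, lectins and their signalling chains they were -3.87 for Cd72, -3.72 for Fcer1g, -4.76 for Itgam, -3.57 for Clec4a4, -5.19 for Clec4a2, -2.05 for Klrd1, -2.04 for Lair1, -2.63 for Clec4a1, -2.44 for Fcgr2b, -2.61 for Cd209a, -1.86 for Sirpa, -1.47 for Fgr, -1.51 for Sirpb1c, -2.98 for Itgb3, -1.58 for Il2rg, -5.50 for Skint3, -3.30 for Ptger3, -2.99 for Cadm3, -3.58 for Ptpro and -2.60 for Ms4a4c. Among interferon, sensing and transcription genes they were -2.46 for Gbp2, -3.11 for Oas1a, -3.76 for Rtp4, -3.14 for Ddx58, -3.71 for Ddx60, -2.51 for Tlr1, -2.93 for Irf4, -2.79 for Stat4, -2.39 for Egr1, -1.24 for Bcl3 and -3.66 for Dtx1. Among secreted, enzymatic and other genes they were -2.78 for Mmp12, -3.33 for Cybb, -4.95 for Ccl9, -2.30 for Ltb, -2.92 for H2-M2, -3.93 for Tnfsf14, -1.32 for Lgmn, -2.41 for B3gnt5 and -2.57 for St8sia1. Fcgr2b, not called in WT, had a log2 fold change of 2.73 in KO, and B3gnt5, higher in cDC1, had 5.94 in KO.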

How the results depend on the processing

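The count of genes called between the WT subsets (2846) was 1537 when the 6 WT libraries were fitted alone and 782 there with the mouse pool as a replicate block, 6391 within replicates 2 and 3, and 4496 without mouse pool 4. It was 2235 with the replicate block on all 12 libraries, 3605 with gene length offsets, 3066 with gene length offsets and the block, and 2049 to 3266 with 1 WT library left out. The count past the 2-fold test (1142) was 758 with limma-voom, 445 with the block on the 6 WT libraries and 1912 within replicates 2 and 3, and 867 to 1204 with 1 library left out. The KO count (2264) was 6620 within replicates 2 and 3 and 4516 without pool 4. The count of differences between the contrasts (190) was 480 with DESeq2, 116 with the block, 5157 within replicates 2 and 3, 1803 without pool 4, 300 with gene length offsets, and 110 (without cDC1 WT replicate 2) to 501 (without cDC1 WT replicate 1) with 1 library left out. No called gene named here changed sign under the 20 alternatives, and the block on all 12 libraries ended the calls of 7 of 198, all given above. The 6 WT libraries alone ended 11 of these calls, and 35 with the pool as a replicate block: beside those given above, Actb, Adcy3, Btg2, Egr1, Fth1, Klrk1, Lgmn, Manf, P2rx7, Pirb, Plbd1, Ppp1r15a, Rbpj, S100a1, Sdf2l1, Sec61a1 and Zfp36 (adjusted p = 0.0544 to 0.194). The log2 fold change of Xbp1, not called, was -0.016 with upper quartile scaling and -0.115 to 0.405 with 1 WT library left out, below 0 without cDC2 WT replicate 2 or 3. The cause of these moves was not tested. At this depth and number of pools, simulated 2-fold differences were called in 11.9% of cases. The simulation changed a far smaller share of genes than was called in the data, so this rate need not hold there. A gene that did not pass may still differ.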

Other observations

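Several gene families beyond the lists described above were counted by their symbols. Of 28 tested serpins, protease inhibitors, 9 were higher in WT cDC1 and 6 in WT cDC2, 53.6% against 21.2% of all genes tested. Serpinb9, the inhibitor of granzyme B, had 258, 326 and 377 CPM in WT cDC1 and 56.1, 37.1 and 51.0 CPM in WT cDC2 (log2 fold change 2.74, SE 0.24, adjusted p = 7.01e-06), and Serpinf1 had 50.3, 97.9 and 102 CPM in WT cDC1 and 4.24, 1.72 and 2.82 CPM in WT cDC2 (log2 fold change 4.81, SE 0.39, adjusted p = 3.37e-06). The groups did not overlap in either gene. Of 219 solute carriers, 31 were higher in cDC1 and 35 in cDC2. Slc8b1, the mitochondrial exchanger of sodium and calcium, had 394, 301 and 253 CPM in WT cDC1 and 43.0, 29.2 and 29.0 CPM in WT cDC2 (log2 fold change 3.23, SE 0.25, adjusted p = 2.85e-06). Cytochromes P450 leaned to cDC2, with 9 of 18, against 2 in cDC1. Cyp8b1, a hydroxylase of bile acid synthesis, was 1 of the 2, with 5.88, 12.6 and 12.9 CPM in cDC1 and no read in cDC2. Zinc finger genes with the prefix Zfp had a low share of calls, 8 and 19 of 337, which is 8.01%. These families and genes were chosen after their values were seen.

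Of 28 tested genes of complement and coagulation, 4 were higher in cDC1 and 11 in cDC2, 53.6% against 21.2% of all genes tested. The count in cDC2 was 7 without cDC1 WT replicate 2 or 3 and 6 without cDC2 WT replicate 2. Cfp, which encodes properdin, a stabiliser of the alternative complement pathway, had 119, 167 and 180.5 CPM in WT cDC1 and 748, 549 and 504 CPM in WT cDC2 (log2 fold change -1.95, SE 0.24, adjusted p = 8.60e-05). Vwf, better known from endothelium and platelets, had 15.5, 18.1 and 17.0 CPM in WT cDC1 and 2.56, 3.81 and 1.91 CPM in WT cDC2 (log2 fold change 2.59, SE 0.28, adjusted p = 2.76e-05), higher in every WT cDC1 library than in any WT cDC2 library. The genes that follow belong to other lists or to none and were chosen after their values were seen. P2rx7, an ATP-gated channel, had 48.1, 37.9 and 33.2 CPM in WT cDC1 and 19.4, 14.2 and 13.8 CPM in WT cDC2 (log2 fold change 1.33, SE 0.22, adjusted p = 9.06e-04), and Kcnk5, a potassium channel, had 0.110, 0.153 and 0.289 CPM in WT cDC1 and 8.03, 7.21 and 7.20 CPM in WT cDC2 (log2 fold change -5.32, SE 0.62, adjusted p = 5.27e-05). Of 32 tested genes of the Notch pathway, 6 were higher in cDC1 and 5 in cDC2, 34.4% against 21.2% of all genes tested. Mfng, Lfng and Jag1 were on the cDC2 side beside Dtx1. Among the 6, Rbpj, the DNA-binding partner of Notch, had 233, 154 and 146 CPM in WT cDC1 and 103, 74.6 and 60.4 CPM in WT cDC2 (log2 fold change 1.16, SE 0.29, adjusted p = 0.0116). That call ended when the 6 WT libraries were fitted alone (adjusted p = 0.0544). Dtx4, a relative of Dtx1, had 26.8, 19.6 and 15.6 CPM in WT cDC1 and 4.80, 4.88 and 5.46 CPM in WT cDC2 (log2 fold change 2.04, SE 0.24, adjusted p = 5.83e-05), so Dtx1 and Dtx4 lay on opposite sides. Casp6, a caspase, was higher in cDC1 at 2.03 (SE 0.23).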
